A study of Aspergillus nidulans with 48 samples.

Results

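The genes described here are 73 genes of the filamentous fungus *Aspergillus nidulans* that were abundant in asexual spores (conidia), scarce in growing hyphae, and still present in spores of a strain without the transcription factor gene *atfA*. They were chosen by measured values, as means of the 3 untreated libraries of a group in RPKM (read counts scaled by gene length and by the total counts of the library). A gene was taken when it reached at least 100 RPKM in control conidia, at least 10 times its level in control mycelia, and at least 0.5 of its control level in Δ*atfA* conidia. Of 10988 genes in the table, 339 met the conditions on the control strain, and 73 of these also met the condition on Δ*atfA*, whereas the other 266 fell below that share. The choice fixes the levels in those 9 libraries, which are therefore given as a description, and tests are read in the libraries it did not use.

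*A. nidulans* forms conidia on conidiophores, upright stalks raised from the hyphal mat, and the regulators BrlA and AbaA act in succession while these are built. A ripe conidium carries a wall covered by hydrophobin rodlets and a green pigment, and it stores transcripts, sugars and protective proteins before it germinates. AtfA is a bZIP (basic leucine zipper) transcription factor of the stress-activated kinase pathway, and in several *Aspergillus* species it is known for its role in the stress tolerance of spores. AtfB is a related bZIP factor.

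RNA was sequenced from 4 strains: the control strain THS30.3, Δ*atfA*, Δ*atfB* and the double deletion Δ*atfA*Δ*atfB*. Surface cultures grew at 37 °C on Barratt's minimal agar with or without menadione sodium bisulfite (MSB, an agent that generates superoxide, given in the labels at a dose of 0.04), and each strain was sampled on both media as conidia from 3-day-old cultures and as mycelia of 20 to 33 h taken before conidiophores formed. Each of the 16 groups held 3 libraries, described as biological replicates. Conidia were washed off the culture surface and filtered, which leaves room for other cells. In conidia, libraries 1 and 2 of each group were labelled batch 1 and library 3 batch 2, and every mycelial library was batch 3, so that batch, culture age and harvest cannot be told apart from cell type.

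Library totals ran from 8426329 to 24958904 counts in conidia and from 12974631 to 36314359 in mycelia. The level of *atfA* fell from 437 to 576 RPKM in untreated control conidia to between 26.5 and 67.8 in Δ*atfA* and between 10.4 and 21.1 in the double mutant. The gene *atfB* stood at 253 to 362 RPKM in untreated control conidia and at 216 to 314 in the conidial libraries labelled Δ*atfB*, against 1.94 to 2.67 in the double mutant. In untreated mycelia, where *atfB* is low, its mean was 3.28 RPKM in the control and 0.771 in Δ*atfB*. The conidial libraries labelled Δ*atfB* thus kept *atfB* reads, also on MSB (131 to 257 RPKM), so they are called "labelled Δ*atfB*" below and no effect of *atfB* is read from them. The 5 defining conidial markers outside the 73 genes (*wA*, *catA*, *conJ*, *wetA* and *vosA*) summed to 13480 to 13674 RPKM in untreated control conidia but to 167 to 286 in untreated Δ*atfA* and 307 to 353 in the untreated double mutant. In untreated Δ*atfA* against the control, *catA*, *conJ* and *wA* had log2 fold changes of −11.02, −8.47 and −5.90. Those of *wetA* and *vosA* were −2.04 and −1.58. The marker list held 8 genes, and the rest of it is among the 73 genes, kept by the choice at 0.5 or more. In Δ*atfA* conidia the batch 2 library stood apart. Of the 73 genes, 51 lay more than 1 log2 unit from the mean of the other 2 libraries in the MSB-treated group and 35 in the untreated group, against at most 28 in any other library. For that reason the values of each library are printed, and counts are also given from batch 1 alone.

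The choice of genes depended on the scale. On deposited RPKM, the 266 genes below the limit in Δ*atfA* took 30.4% ± 0.437 (SD, n = 3) of the counts of untreated control conidia and 1.90% ± 0.0753 in Δ*atfA*, while the share of the 73 genes was 5.07% ± 0.273 and 8.07% ± 0.837. Scaling by RLE (relative log expression) factors, which level out the bulk of genes in place of the total, left 50 of the 73 genes in the list and brought in 25 others. With the median of the 3 libraries in place of the mean, 68 of the 73 remained, and without the batch 2 library 60 remained. Among the genes just inside the limits, the spore pigment laccase gene *yA* (AN6635) had 100 RPKM and AN4807 had 102.9, with AN11094 (94.9) and AN7344 (91.5) just outside. The ratio of conidia to mycelia was 10.6 for AN1423 and 10.7 for *fdh* (AN6525), against 9.75 for AN0129 and 9.69 for AN4539 outside. The ratio of Δ*atfA* to control was 0.511 for AN3848 and 0.518 for *aspf13* (AN6273), against 0.483 for AN4063 and 0.478 for AN10703 outside.

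In untreated control conidia the most abundant of the 73 genes was AN11787, with 9812, 5351 and 5317 RPKM. It was followed by the rodlet hydrophobin gene *rodA* (AN8803) with 3389, 4681 and 5212 RPKM and by a second wall hydrophobin, *dewA* (AN8006), with 2330, 2400 and 4188. The α-1,3-glucanase gene *mutA* (AN7349), whose product degrades a wall glucan, had 3176, 1680 and 899 RPKM, and AN10356 had 2246, 1311 and 968. The lowest library of AN11787 lay just above the highest of *rodA*, whereas the libraries of *rodA*, *dewA*, *mutA* and AN10356 overlapped with their neighbours in this order. Next came the chaperone gene *hsp70* (AN5129), AN2488, AN4474, AN1378 and the chitinase gene *chiB* (AN4871), with means of 1403, 1192, 1143, 1082 and 1036 RPKM. AN3983, AN1066, AN1418, *cspA* (AN3032, a cell surface protein gene) and AN7217 completed the highest 15 with means of 798, 728, 722, 717 and 658 RPKM. AN1066 is annotated by its ortholog with a role in the assembly of respiratory complex IV.

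Among the 73 genes, 15 carry a gene symbol. Of the 73 genes, 6 encode proteins of the conidial wall or pigment (*rodA*, *dewA*, *cspA*, the conidial wall protein gene *ccpA* AN10109, *cweA* AN1827 and *yA*). Another 7 fell in the study's list of carbohydrate-active enzymes (*mutA*, *chiB*, the α-glucosidase gene *agdC* AN7345, AN0472, AN0602, AN1428 and AN4825), 5 in its secondary metabolite clusters (*ausE* AN9246 and AN11871 of the austinol cluster, AN4825, AN7836 and AN8908), and 2 among its transcription factors (AN11185 and AN0742, both predicted zinc-binding regulators). The other named products are a formate dehydrogenase (*fdh*), an eisosome protein of the plasma membrane (*pilB* AN3931), a putative cation-pumping ATPase (*enaA* AN6642) and *aspf13*. The median gene length was 1390 bases for the 73 genes, 1174 for the 266 others and 1490 for the whole table, and only 2 pairs were direct neighbours on a chromosome (AN6657 with AN6658, AN1427 with AN1428).

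The other groups without *atfA*, whose libraries the choice had not used, were asked for genes at 0.5 or more of their control level. In MSB-treated Δ*atfA* conidia, 61 of the 73 genes stood at 0.5 or more of the MSB-treated control on mean RPKM, against 26 of the 266 others. For the double mutant, 58 of 73 did so untreated and 59 on MSB, against 21 and 28 of 266. In all 3 of these groups together, 51 of the 73 genes and 16 of the 266 reached that share. With RLE-scaled RPKM the 3 counts fell to 50, 36 and 47 of 73. Without the batch 2 libraries, a setting chosen after the data had been seen, they were 51, 58 and 54, so that the untreated double mutant kept its count. The median ratio of Δ*atfA* to control on MSB was 1.07 for the 73 genes (range 0.0513 to 14.2) and 0.0202 for the 266. Relative to labelled Δ*atfB* libraries, the double mutant had a median ratio of 1.41 untreated and 1.28 on MSB for the 73 genes, and 0.0253 and 0.0282 for the 266. On deposited RPKM, the plot of ratios by gene shows that the 73 genes spread to both sides of equality while most of the others lay far below it. With RLE-scaled RPKM the median ratio of Δ*atfA* to control on MSB was 0.672 for the 73 genes and 0.0127 for the 266. On RLE factors, 16 of the 73 genes had a positive log2 fold change there. For the double mutant over labelled Δ*atfB* 36 did so untreated and 36 on MSB. The untreated double mutant was set against untreated control libraries that had served to choose the genes, while the other groups here shared no library with the choice. The count of 51 genes in all 3 groups rests in part on those control libraries. The 266 genes had been set apart as those below 0.5 in untreated Δ*atfA*. The share of all genes at 0.5 or more was not counted, so these counts are not read as particular to the 73 genes. By the test described below, on library totals, 874 of 10143 genes were called lower in MSB-treated Δ*atfA* than in the control. Among the 73 genes 13 were called lower.

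**Figure D1:**
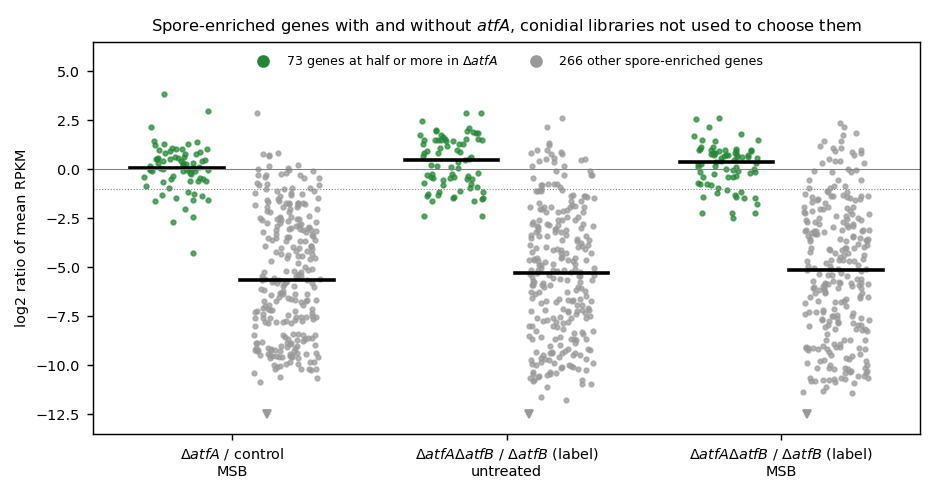
Log2 ratio of mean RPKM (3 libraries per group) between strains without and with *atfA* for each of the 73 genes (green) and the 266 other spore-enriched genes (grey), in conidial libraries that did not serve to choose the genes. Black bars are medians, the dotted line marks a ratio of 0.5, and the triangle at the lower edge of each comparison is 1 gene at 0 RPKM. Medians of the 73 genes are 1.07, 1.41 and 1.28 as ratios, and those of the 266 lie between 0.0202 and 0.0282. These ratios follow library totals. With RLE-scaled RPKM the median of the 73 genes for Δ*atfA* over control on MSB is 0.672.

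In MSB-treated conidia without *atfA*, 3 of the 73 genes were upregulated and 23 downregulated relative to the control (edgeR quasi-likelihood test, Benjamini-Hochberg adjusted p below 0.05 over 10143 genes and a log2 fold change beyond 1). Of all genes tested, 13.5% were called higher and 14.4% lower, while the 73 genes had 4.11% and 31.5%. Their median log2 fold change was −0.67, against 0.08 over all genes. The test uses RLE factors, and scaling by library totals moved the median of all genes by 0.66 in this comparison, with 8 of the 73 genes higher and 13 lower. In batch 1 alone, 3 were higher and 33 lower. Of the 266 other genes, 248 were called lower, with a median of −6.31. The summed level of *act1*, *niaD* and *niiA*, taken here as hyphal markers, was 546 to 680 RPKM in these control conidia and 954 to 1154 in Δ*atfA*. That of 6 conidiophore markers was 325 to 609 and 807 to 966. RPKM follows library totals, and by the test on RLE factors none of the 3 hyphal markers was called. Of the 6 conidiophore markers, 2 were called higher and 1 lower. Their part in the result was not tested.

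The eisosome gene *pilB* fell furthest. It had 710, 664 and 769 RPKM in MSB-treated control conidia and 22.2, 17.8 and 69.99 in Δ*atfA*, and the log2 fold change was −5.17 ± 0.56 (SE, adjusted p = 3.4e-07). Every Δ*atfA* library lay far below every control library, although *pilB* had entered the list through an untreated Δ*atfA* mean of 330 RPKM to which libraries 1 and 2 contributed 163 and 157 and library 3 contributed 670. The predicted regulator gene AN11185 behaved alike, with 109.3, 115 and 132 RPKM in the control and 9.74, 8.43 and 37.1 in Δ*atfA* (log2 fold change −3.68 ± 0.48, adjusted p = 3.4e-06). Here too the untreated Δ*atfA* mean of 78.5 RPKM came from libraries of 31.2, 24.1 and 180. With the median of 3 libraries in place of the mean, neither *pilB* nor AN11185 would have entered the list.

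AN1066 had 786, 819 and 978 RPKM in MSB-treated control conidia and 115, 136 and 221 in Δ*atfA*, a log2 fold change of −3.14 ± 0.26. The glucanase gene *mutA* went from 247, 251 and 265 RPKM to 11.04, 5.71 and 169, without overlap but with Δ*atfA* library 3 far above the other 2 (−3.33 ± 0.90, adjusted p = 0.0045). *fdh*, AN7011 and AN1509 fell with log2 fold changes of −2.16 ± 0.34, −2.24 ± 0.35 and −2.30 ± 0.23. The 3 genes that rose were AN1677, AN8737 and AN5709. AN1677 had 167, 171 and 109.4 RPKM in the control and 644, 556 and 5165 in Δ*atfA* (2.52 ± 0.59, adjusted p = 0.0015), with the batch 2 library far above the others. AN5709 had 205, 190 and 253 RPKM in the control and 938, 879 and 1134 in Δ*atfA*, without overlap and with close libraries (1.52 ± 0.27). The rise of AN8737 (1.93 ± 0.59) rested on library 3 of Δ*atfA*, without which its log2 fold change was 0.46 and no longer called, and it was 0.26 in batch 1 alone.

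**Figure D2:**
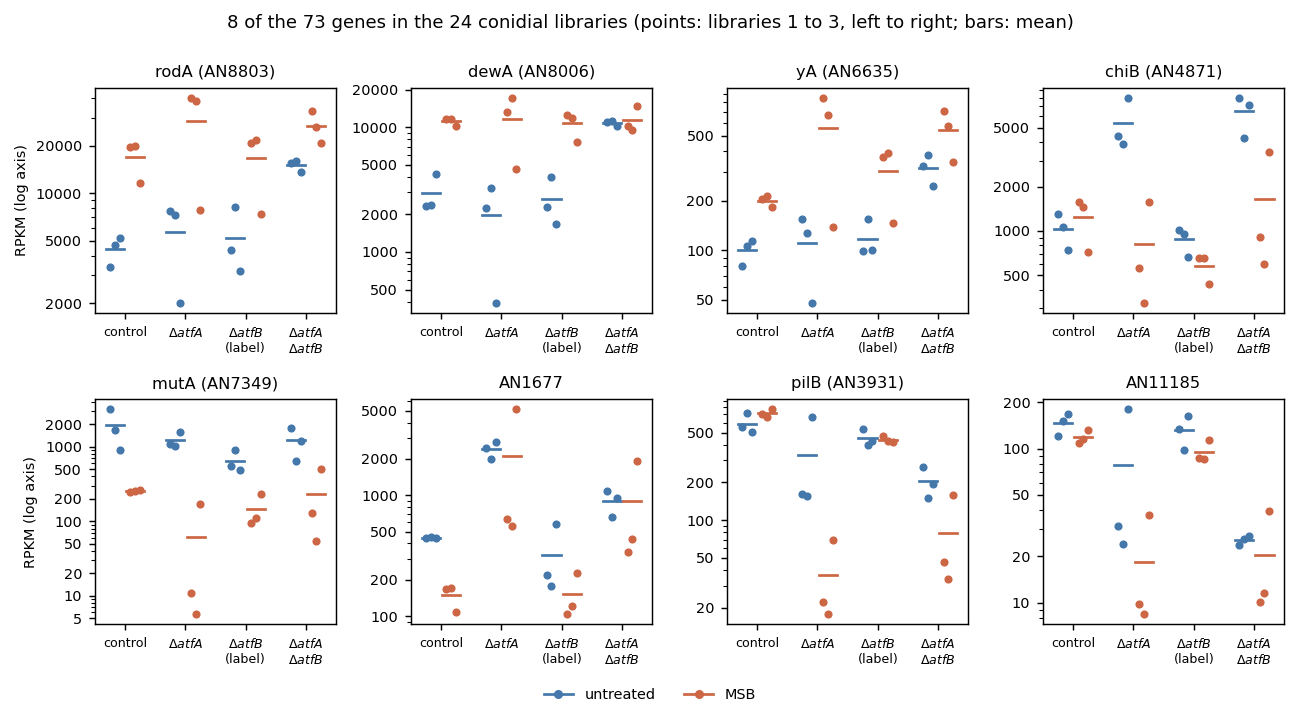
RPKM on a logarithmic axis for 8 of the 73 genes in the 24 conidial libraries, by strain and treatment. Points are libraries 1, 2 and 3 from left to right and bars are means of 3. The wall genes *rodA*, *dewA* and *yA* stand higher on MSB in the control and in Δ*atfA*, and *pilB* and AN11185 stand lower in the 2 strains without *atfA*, where library 3 of Δ*atfA* lies apart.

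The double mutant was also compared with the labelled Δ*atfB* libraries. In conidia this pair differed in both factor genes, since *atfB* was lower in the double mutant with log2 fold changes of −7.30 untreated and −6.70 on MSB, so that loss of *atfA* and loss of *atfB* cannot be told apart here. In Δ*atfA* against the control, *atfB* was lower as well (−3.89 on MSB). In untreated conidia 21 of the 73 genes were upregulated and 18 downregulated (28.8% and 24.7%), against 13% and 16.9% of all genes, with a median of −0.05 for the 73 and 0.06 for all. Scaling by library totals gave 28 higher and 14 lower. On MSB, 6 were upregulated and 18 downregulated, against 11.2% and 12.8% of all genes, with a median of −0.01 for the 73 and 0.08 for all. In this case library totals gave 12 higher and 13 lower. Library totals shifted the median of all genes by 0.49 and 0.42 in these 2 comparisons.

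Some falls were shared between strain pairs. Of the 23 genes lower in Δ*atfA* than in the control on MSB and the 18 lower in the double mutant than in labelled Δ*atfB* on MSB, which share no library, 14 were common, or 60.9% of the first list and 77.8% of the second. They were AN1066, AN11185, AN1423, AN1509, AN2238, AN2488, *pilB*, AN5449, *fdh*, *enaA*, AN6657, AN7011, AN8566 and AN8607. The overlap of these comparisons over all genes was not counted, so the sharing is not read as particular to the 73 genes. Of the 266 others, 248 and 240 were called lower in the same 2 comparisons. In the double mutant on MSB, *pilB* had 46.2, 34.1 and 159 RPKM against 469, 431 and 421 (−3.13 ± 0.52), AN11185 had 10.1, 11.5 and 39.5 against 87.5, 85.4 and 114 (−2.90 ± 0.46), and AN1509 had 59.6, 68.98 and 95.7 against 338, 346 and 369 (−2.68 ± 0.23, adjusted p = 1.2e-08). For none of these 3 genes did the strains overlap. The untreated double mutant held AN7011 at 139, 103.2 and 150 RPKM against 672, 585 and 818 (−2.90 ± 0.35), AN11185 at 23.5, 25.7 and 27.3 against 133, 97.7 and 162 (−2.83 ± 0.46), and AN8483 at 177, 353 and 237 against 690, 702 and 956 (−2.09 ± 0.36). The putative ATPase gene *enaA* fell in both media (−1.93 ± 0.38 untreated and −2.04 ± 0.39 on MSB).

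The largest rise in the untreated double mutant was that of AN8737, with 789, 723 and 814 RPKM against 63.7, 146 and 109.6 in labelled Δ*atfB* (2.40 ± 0.58, adjusted p = 0.0017). On MSB it had 253, 240 and 539 against 46.95, 67.7 and 54.3 (2.08 ± 0.57). The chitinase gene *chiB* had 8008, 4286 and 7183 RPKM untreated against 1011, 955 and 668 (2.35 ± 0.57). AN4825, a putative glucan 1,3-β-glucosidase gene, had 501, 432 and 497 against 61.04, 126 and 67.6 (2.02 ± 0.33). On MSB the other large rises were AN1677 (340, 438 and 1916 RPKM against 104.2, 123 and 228, 1.90 ± 0.56) and AN3983 (1753, 2411 and 747 against 377, 400 and 330, 1.62 ± 0.29). The call of AN1677 was lost without library 3 of the double mutant, where its log2 fold change was 1.33. The rises of *rodA*, *dewA* and their companions in this untreated comparison are taken up with the response to MSB.

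Most of the 6 listed wall and pigment genes were upregulated in conidia from MSB plates in the control, Δ*atfA* and labelled Δ*atfB*. None was called in the double mutant. In the control strain 16 of the 73 genes were upregulated and 16 downregulated on MSB, against 4.6% and 10% of all genes, and in Δ*atfA* 17 were upregulated and 31 downregulated, against 6.38% and 8.68%. In the labelled Δ*atfB* libraries 16 were upregulated and 7 downregulated, against 2.1% and 2.17%. The medians of the 73 genes were −0.37, −0.84 and −0.44, while those of all genes were −0.01, −0.02 and −0.07. The untreated control and Δ*atfA* libraries in the first 2 comparisons had served to choose the genes, while the third comparison is free of them. Fewer cells of a type and less RNA per cell cannot be told apart in such bulk samples.

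A set of 15 genes was upregulated on MSB in all 3 of these strains: *rodA*, *dewA*, *cspA*, *ccpA*, *cweA*, *ausE*, AN0602, AN10930, AN12446, AN3858, AN4354, AN7477, AN8375, AN8382 and AN8908. Their median log2 fold change was 1.73 in the control, 2.28 in Δ*atfA* and 1.55 in labelled Δ*atfB*. The control list of 16 and the labelled Δ*atfB* list of 16, which share no library, had these 15 in common (93.8% of each). The overlap of these 2 comparisons over all genes was not counted. Batch 1 alone, an alternative chosen after the data had been seen, gave 17 genes that included all 15. The labelled Δ*atfB* calls were fragile. Their number was 23 with all libraries, 0 without untreated library 1, MSB library 1 or MSB library 2, and 1 without untreated library 3.

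For *rodA* the 3 untreated control libraries of 3389, 4681 and 5212 RPKM compared with 19618, 19778 and 11530 on MSB (log2 fold change 1.68 ± 0.43, adjusted p = 0.006). In Δ*atfA* they were 7723, 7249 and 2013 untreated and 40268, 38256 and 7810 on MSB (2.37 ± 0.43, adjusted p = 0.0006), so that the lowest treated library lay just above the highest untreated one. In labelled Δ*atfB* they were 4347, 8127 and 3180 against 20869, 21765 and 7382 (1.61 ± 0.42, adjusted p = 0.026), which overlapped through library 3. *dewA* rose from 2330, 2400 and 4188 RPKM to 11575, 11616 and 10301 in the control (1.73 ± 0.51, adjusted p = 0.015). In Δ*atfA* it went from 2232, 3263 and 392 to 13306, 17233 and 4590 (2.66 ± 0.53). The call of *dewA* in the control was lost without untreated library 1, untreated library 2 or MSB library 3, with log2 fold changes between 1.49 and 1.63.

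The wall protein gene *ccpA* had 457, 735 and 657 RPKM in untreated control conidia and 3035, 2720 and 1794 on MSB (1.83 ± 0.39), and *cweA* had 207, 381 and 362 against 1654, 1545 and 944 (1.90 ± 0.39). The surface protein gene *cspA* had 407, 622 and 1121 against 2607, 2303 and 1854 (1.47 ± 0.50, adjusted p = 0.032), a call that was lost when any of 5 of the 6 libraries was left out (1.11 to 1.51). The largest rise in the control was that of AN3858, which the reference table lists as a pseudogene, from 190, 264 and 238 to 1959, 2329 and 738 RPKM (2.54 ± 0.39). The austinol dioxygenase gene *ausE* rose from 109.8, 175 and 186 to 685, 684 and 404 (1.66 ± 0.42). The pigment laccase gene *yA* was upregulated in Δ*atfA* (155, 127 and 47.9 RPKM untreated, 849, 671 and 139 on MSB, 2.33 ± 0.40) and in labelled Δ*atfB* (98.5, 154 and 100 against 368, 393 and 147, 1.23 ± 0.38, adjusted p = 0.047), the latter a call that was lost when any of 5 of the 6 libraries was left out (1.06 to 1.45). In the control its libraries ran from 80.3 to 114 RPKM against 183 to 213 without overlap, but the log2 fold change of 0.83 ± 0.38 was not called. AN11871 of the austinol cluster was called in the control and in Δ*atfA*, and not in labelled Δ*atfB*.

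Markers of conidiophores moved in the same direction as a sum, but not each of them did. On MSB *medA* had log2 fold changes of −0.12 in the control, −0.84 in Δ*atfA* and −0.34 in labelled Δ*atfB*. *stuA* had −0.09 in Δ*atfA*. The summed level of *brlA*, *abaA*, *ivoA*, *ivoB*, *medA* and *stuA* was 135 to 179 RPKM in untreated control conidia and 325 to 609 on MSB, with 4 of the 6 genes upregulated. It was 607 to 798 and 807 to 966 in Δ*atfA* (2 upregulated), 177 to 303 and 228 to 518 in labelled Δ*atfB* (2 upregulated), and 615 to 683 and 684 to 988 in the double mutant (none upregulated). In untreated mycelia, taken before conidiophores formed, the same sum was 298 to 379 RPKM in the control and 594 to 773 in Δ*atfB*. This sum therefore does not separate conidiophore RNA from hyphal RNA. The gene *brlA* itself had 53.03, 84.05 and 82.3 RPKM in untreated control conidia and 317, 321 and 162 on MSB. Library 3 was the lowest of the MSB-treated control for *brlA* and for *rodA*. The summed hyphal markers *act1*, *niaD* and *niiA* were 378 to 459 RPKM in untreated control conidia and 546 to 680 on MSB, against 1665 to 3107 in mycelia. In Δ*atfA* conidia they were 605 to 858 RPKM untreated and 954 to 1154 on MSB, in labelled Δ*atfB* 499.8 to 610 and 592 to 730, and in the double mutant 816 to 969 and 987 to 1076. By the test of MSB on RLE factors, 1 of the 3 hyphal markers was called higher in Δ*atfA* and none in the other strains. The called gene was *niaD* (log2 fold change 3.64 ± 1.28). It had 3.57 ± 1.42 in the control, 4.27 ± 1.32 in the double mutant and 1.25 ± 1.34 in labelled Δ*atfB*, without a call. The part of conidiophore or hyphal RNA in the rise of the wall genes was not tested.

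**Figure D3:**
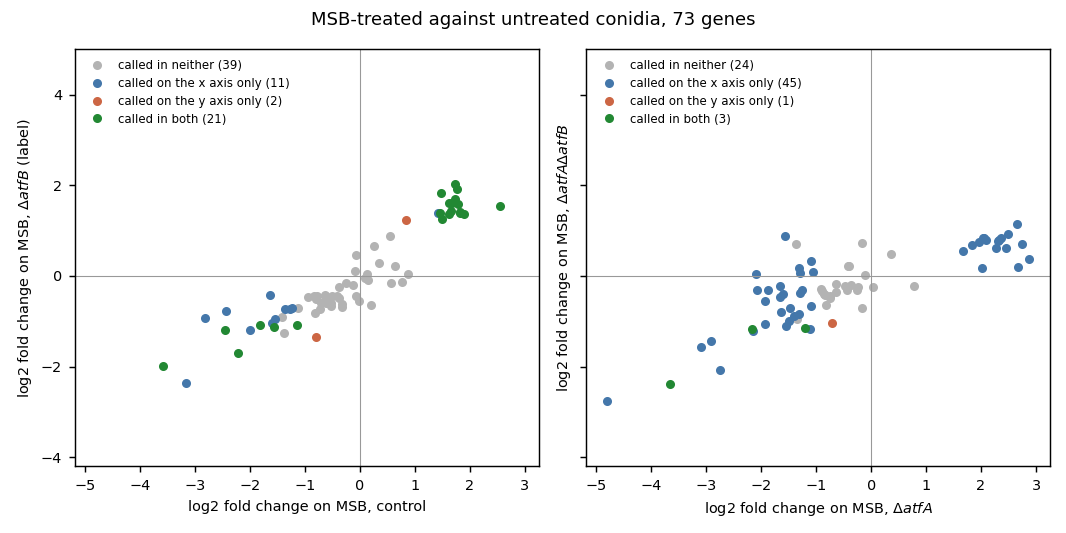
Log2 fold change of MSB-treated over untreated conidia for each of the 73 genes, in labelled Δ*atfB* against the control (left) and in the double mutant against Δ*atfA* (right). Colours give where a gene was called, with the number of genes in brackets. On the left 21 genes were called in both strains, and on the right 3, because 4 of the 73 genes were called in the double mutant.

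In the double mutant the rise on MSB was not called. None of the 73 genes was upregulated and 4 were downregulated (edgeR, against 0.611% and 0.631% of all genes), 26 had an unadjusted p below 0.05, and DESeq2 called 1 higher and 9 lower. The median of the 73 genes was −0.29, against 0.01 over all genes. In batch 1 alone 4 were higher and 17 lower, and leaving out single libraries gave 0 to 8 calls, 8 without MSB library 3. The 15 wall genes and their companions had a median of 0.74 (range 0.18 to 1.15) with none called. In the untreated double mutant 14 of these 15 already stood above the untreated labelled Δ*atfB* libraries (median 1.16), whereas none was called between these strains on MSB (median 0.42). The 15 genes had been picked in part for a rise from those same untreated labelled Δ*atfB* libraries, so that the untreated difference reuses a low baseline and is a description. For *rodA* the untreated double mutant had 15545, 15970 and 13706 RPKM and the MSB-treated one 33329, 26446 and 20752, and for *dewA* these were 10975, 11201 and 10152 against 10150, 9521 and 14935. The *rodA* libraries did not overlap although the gene was not called, while those of *dewA* overlapped. The untreated excess over labelled Δ*atfB* was 1.16 ± 0.42 for *rodA* and 1.60 ± 0.51 for *dewA*. The first was lost in batch 1 alone (0.89) and without untreated labelled Δ*atfB* library 1 or 3 or double mutant library 3 (0.83 to 1.17), and the second without labelled Δ*atfB* library 3 (1.47). In that comparison 2 of the 6 conidiophore markers were also upregulated, and their part was not tested.

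Whether the response to MSB differed between the double mutant and labelled Δ*atfB*, which differ in both *atfA* and *atfB* in conidia, was tested as an interaction among the 12 libraries of labelled Δ*atfB* and the double mutant. No gene of the 73 was called (edgeR, against 0.0493% of all genes), 15 had an unadjusted p below 0.05, and DESeq2 called none either. In batch 1 alone 4 were called with a larger and 11 with a smaller change in the double mutant, and 3 were called without MSB library 3 of the double mutant. The difference between the strains in their response to MSB was thus not shown with all libraries.

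Among the genes that fell on MSB, 6 were downregulated in the control, Δ*atfA* and labelled Δ*atfB*: *agdC*, AN0287, AN10356, AN10993, AN3197 and AN7217. In batch 1 alone there were 8, of which 4 were shared with these 6. The α-glucosidase gene *agdC* had 504, 229 and 108.5 RPKM in untreated control conidia and 22.2, 22.8 and 37.2 on MSB (−3.59 ± 0.61, adjusted p = 0.00041), and 222, 259 and 217 against 10.9, 9.69 and 38.2 in Δ*atfA* (−3.67 ± 0.62). *mutA* went from 3176, 1680 and 899 to 247, 251 and 265 RPKM in the control (−3.17 ± 0.86, lost without untreated library 1 at −2.40) and from 1070, 1028 and 1550 to 11.04, 5.71 and 169 in Δ*atfA* (−4.80 ± 0.95). The groups did not overlap for either gene in either strain. AN7217 fell in the control from 972, 583 and 421 to 115, 125 and 139 RPKM (−2.46 ± 0.31). The *chiB* chitinase gene had 1312, 1058 and 739 RPKM in untreated control conidia and 1560, 1464 and 717 on MSB, which overlap, but 4419, 3906 and 7926 against 558, 325 and 1577 in Δ*atfA* (−2.75 ± 0.58). The *pilB* eisosome gene was likewise lower on MSB in Δ*atfA* (−3.10 ± 0.51), while the control had 552, 710 and 502 against 710, 664 and 769. In the control and in Δ*atfA* the untreated libraries of these comparisons had served to choose the genes so that these falls are a description, and *mutA*, *chiB* and *pilB* were not called lower on MSB in the strains free of the choice. The differences between these strains in the response to MSB were not tested.

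In the double mutant the 4 genes that fell on MSB were *agdC* (399, 252 and 362 RPKM untreated, 61.6, 47.2 and 81.7 on MSB, −2.39 ± 0.58), AN1066 (319, 340 and 240 against 112.01, 118 and 160, −1.17 ± 0.25), AN1428 (685, 387 and 525 against 202, 186 and 312, −1.16 ± 0.28) and AN1418 (1633, 1106 and 1421 against 511, 519 and 961, −1.04 ± 0.22). None of the 4 pairs of groups overlapped. Each of these calls was lost when 1 of several libraries was left out.

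**Figure D4:**
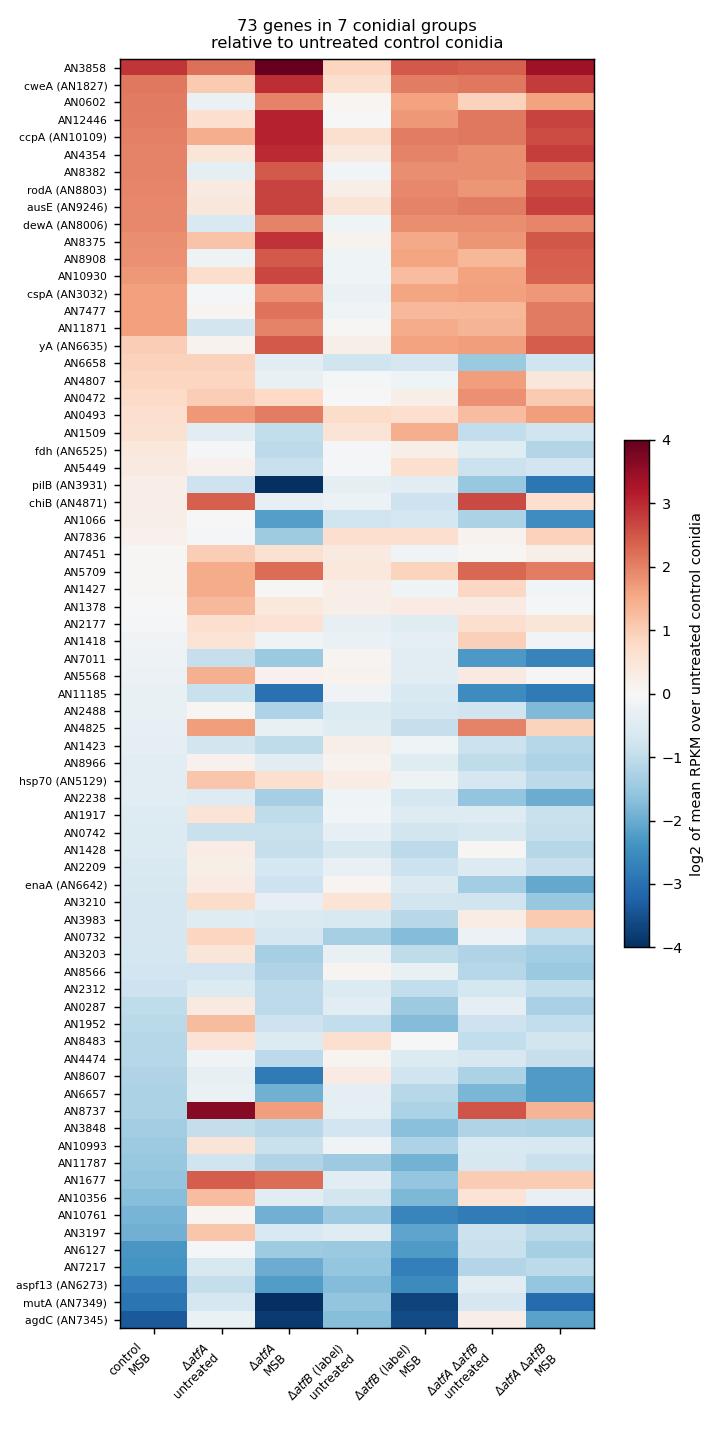
Log2 ratio of mean RPKM in 7 conidial groups over untreated control conidia for the 73 genes, ordered by the ratio in MSB-treated control conidia (red higher, blue lower, colours end at 4 log2 units). The block of wall genes and their companions at the top is red on MSB in each strain and in the untreated double mutant, and *mutA* and *agdC* at the bottom are blue on MSB.

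The labelled Δ*atfB* libraries stayed closest to the control. On MSB none of the 73 genes was upregulated and 2 were downregulated (edgeR, against 0.552% and 1.42% of all genes), with 27 at an unadjusted p below 0.05 and 4 calls, all lower, by DESeq2. Batch 1 alone gave 10, all lower. Leaving out MSB-treated control library 3 gave 6. The 2 genes were AN0732, annotated as a transporter of the major facilitator superfamily (76.5, 77.8 and 70.2 RPKM in the control, 35.4, 25.1 and 48.1 in labelled Δ*atfB*, −1.38 ± 0.26), and AN1066 (786, 819 and 978 against 457, 412 and 466, −1.23 ± 0.25). The median of the 73 genes was −0.51, against 0.00 over all genes. Untreated, 11 genes were lower and none higher, against 3.41% and 1.06% of all genes, with a median of −0.59 beside 0.01 and control libraries that had served to choose the genes. They were AN0732, AN1066, AN10356, AN10761, AN11787, AN1952, AN3848, AN6127, AN7217, *aspf13* and *agdC*. Batch 1 alone gave 20 and library totals gave 6. Without untreated control library 1 the count was 5, and without labelled Δ*atfB* library 3 it was 7.

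The remaining comparisons of conidia share control libraries with those above and are given for completeness. On MSB the double mutant had 3 genes higher and 28 lower than the control, against 14.9% and 15.1% of all genes, with a median of −0.54 beside 0.07, and library totals gave 10 and 13. Untreated it had 9 higher and 35 lower, against 15.8% and 19.6%, with a median of −1.09 beside 0.06, and library totals gave 23 and 14. The contrast that chose the genes, untreated Δ*atfA* against the untreated control, had 4 higher and 21 lower, against 18.5% and 20.4%, and 13 and 3 with library totals. Nothing is read from the last, and library totals moved the median of all genes by 0.80 there, by 0.85 for the untreated double mutant and by 0.70 for the MSB-treated one.

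Enrichment in conidia held in strains and media outside the choice. On MSB in the control, 72 of the 73 genes were higher in conidia than in mycelia, against 31.4% of all genes, with a median log2 fold change of 5.89. Untreated labelled Δ*atfB* also had 72 higher (34.7%, median 5.13), and the untreated double mutant had 70 (30.2%, median 5.98). On MSB, 65 were higher in Δ*atfA* (28.9%, median 5.37) and 65 in the double mutant (28%, median 5.59). For the 266 others the counts were 263, 266, 201, 177 and 169, with medians of 7.87, 7.31, 2.54, 2.098 and 1.99. The medians of all 10264 genes tested lay between 0.12 and 0.21. In every conidial group, 39 of the 73 genes stood at least 10 times above their highest mycelial mean.

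In 5 genes the lowest conidial mean lay below the highest mycelial mean: AN0732, AN1677, AN1952, AN3848 and AN7217. AN1677 was the one gene not called in the control on MSB (167, 171 and 109.4 RPKM in conidia, 178, 194 and 45.6 in mycelia) or in labelled Δ*atfB* (218, 177 and 578 against 403, 418 and 396). AN1952, AN3848 and AN5449 were not called in any of the 3 groups without *atfA*. AN3848 had 120, 170 and 190 RPKM in MSB-treated Δ*atfA* conidia and 111.5, 159 and 147 in the mycelia. AN5449, annotated as a sulfuric ester hydrolase, had 37.6, 39.4 and 93.04 against 44.8, 34.8 and 67.4. In the control on MSB the latter 2 had 110.7, 120 and 163 against 12.8, 20.5 and 10.3 (AN3848) and 122, 124 and 163 against 17.1, 23.2 and 15.1 (AN5449), without overlap.

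Within mycelia 65 of the 73 genes passed the filter on low values, and most were at a few RPKM or below. On MSB, loss of *atfA* came with 7 genes higher and 8 lower than the control, against 2.77% and 6.04% of 9199 genes, with a median of 0.04 for the 65 and −0.01 for all. The double mutant against Δ*atfB* had 11 higher and 21 lower untreated, against 3.55% and 7.44%, and 1 higher and 14 lower on MSB, against 3.11% and 7.06%. The medians of the 65 were −0.20 and 0.08, and those of all genes 0.01 in each. In untreated mycelia, where the control libraries had served to choose the genes, Δ*atfA* had 10 higher and 18 lower than the control, against 3.57% and 8.87%, with a median of −0.24 beside 0.00.

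AN3848 rose without *atfA* in each of these comparisons. It had 26.3, 30.1 and 23.6 RPKM in untreated control mycelia and 117, 119 and 105.8 in Δ*atfA* (2.13 ± 0.23), and on MSB 12.8, 20.5 and 10.3 against 111.5, 159 and 147 (3.26 ± 0.25, adjusted p = 8.5e-09). In the double mutant it had 111.9, 109.4 and 96.9 RPKM against 12.6, 13.1 and 10.7 in Δ*atfB* untreated (3.22 ± 0.24) and 111.7, 90.8 and 123 against 37.4, 23.7 and 15.99 on MSB (2.12 ± 0.23). The groups never overlapped. In conidia the same gene was called in none of the comparisons free of the choice, with 110.7, 120 and 163 RPKM in the control and 120, 170 and 190 in Δ*atfA* on MSB (log2 fold change −0.37 ± 0.24).

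AN11787, the most abundant of the genes in control conidia, was lower in mycelia of Δ*atfA* (62.6, 120 and 100.5 RPKM against 416, 639 and 413 untreated, −2.36 ± 0.22, and 118, 126 and 132 against 358, 512 and 378 on MSB, −1.73 ± 0.22). AN3983 had no read in the 3 MSB-treated Δ*atfA* mycelial libraries and 0.262, 2.56 and 0.479 RPKM in the control, at least 6.88-fold lower when 3 counts per library are set as the floor. AN7836 was at or near 0 in the same Δ*atfA* libraries (0, 0.0297 and 0 RPKM against 0.129, 0.836 and 0.295) and in the double mutant on MSB (0, 0.0283 and 0.0214 against 1.07, 0.979 and 0.899 in Δ*atfB*), both called lower. On MSB *rodA* stood at 0.592, 0.550 and 0.426 RPKM in Δ*atfA* mycelia and at 15.98, 27.4 and 3.79 in the control, without overlap (−4.92 ± 1.25, adjusted p = 0.0045). In the double mutant it was 0.798, 0.262 and 0.445 against 84.1, 64.2 and 80.7 in Δ*atfB* (−7.19 ± 1.11).

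**Figure D5:**
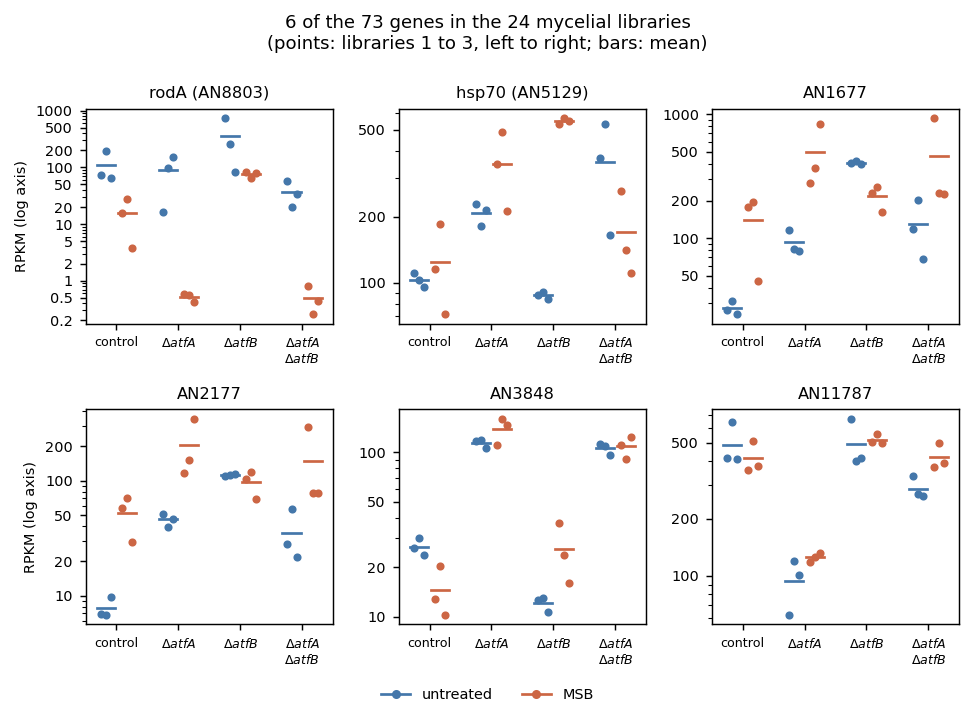
RPKM on a logarithmic axis for 6 of the 73 genes in the 24 mycelial libraries, by strain and treatment. Points are libraries 1, 2 and 3 from left to right and bars are means of 3. AN3848 stands higher in the 2 strains without *atfA*, *rodA* is below 1 RPKM there on MSB, and *hsp70* is highest in MSB-treated Δ*atfB*.

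The chaperone gene *hsp70* changed direction between media. In Δ*atfB* mycelia it had 87.7, 90.5 and 83.9 RPKM untreated and 530, 564 and 548 on MSB, far apart (2.69 ± 0.38, adjusted p = 9.6e-06). In the double mutant it had 371, 531 and 166 untreated and 262, 140 and 111.2 on MSB, which overlap (−1.07 ± 0.36, lost without any of 4 of the 6 libraries). The double mutant therefore stood above Δ*atfB* untreated (2.11 ± 0.37) and below it on MSB (−1.65 ± 0.37). In conidia of Δ*atfA* and the control on MSB *hsp70* had 834, 830 and 4952 RPKM against 1037, 999 and 1019, and its log2 fold change of 0.12 ± 0.44 was not called. It was lower in the double mutant than in labelled Δ*atfB* on both media, with 1048, 670 and 949 RPKM against 1780, 1219 and 2161 untreated (−1.43 ± 0.43) and 433, 435 and 1183 against 1035, 919 and 1666 on MSB (−1.32 ± 0.43). With library totals neither conidial value passed 1 (−0.91 and −0.90), and single libraries decided both calls: untreated labelled Δ*atfB* library 1 and double mutant library 3 in the first (−1.15 and −1.24 without them), MSB-treated labelled Δ*atfB* library 3 and double mutant libraries 1 and 2 in the second (−1.28, −1.21 and −1.19).

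MSB moved mycelial levels in both directions. In the control 10 genes were upregulated and 13 downregulated, against 6.07% and 7.92% of all genes, and in Δ*atfA* 12 and 6, against 9.92% and 7.53%. Δ*atfB* had 11 and 15, against 6.7% and 7.03%, and the double mutant 7 and 7, against 6.58% and 6.13%. The medians of the 65 genes were 0.12, 0.40, −0.10 and 0.01, and those of all genes lay between −0.01 and 0.00. AN10761, a predicted RNA-binding protein gene, was upregulated in each strain. It rose from 21.5, 17.96 and 19.6 to 71.4, 67.6 and 67.4 RPKM in the control (1.86 ± 0.26) and from 10.4, 9.36 and 8.91 to 73.97, 68.5 and 52.7 in Δ*atfB* (2.81 ± 0.27). AN0732 rose in Δ*atfB* (3.68, 5.17 and 4.14 against 35.6, 49.001 and 23.7 RPKM, 3.10 ± 0.57) and in Δ*atfA* (10.6, 4.71 and 6.31 against 55.1, 46.2 and 72.8, 3.01 ± 0.57). AN2177 went from 6.89, 6.84 and 9.70 to 57.5, 70.2 and 29.4 RPKM in the control (2.79 ± 0.51).

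The wall genes did not share in a mycelial rise. *rodA* was downregulated on MSB in mycelia of each strain, from 72.5, 195 and 63.99 to 15.98, 27.4 and 3.79 RPKM in the control (−2.76 ± 0.75) and from 16.4, 96.5 and 152 to 0.592, 0.550 and 0.426 in Δ*atfA* (−7.37 ± 1.16). The conidiophore markers moved with it, from a summed 298 to 379 RPKM to 134 to 153 in the control and from 321 to 666 to 67.1 to 78.1 in Δ*atfA*, and their part in the fall was not tested. AN1509 and AN5709 fell in Δ*atfA* on MSB from 7.98, 13.5 and 19.4 to 1.34, 1.32 and 1.35 RPKM (−3.32 ± 0.29) and from 2.87, 2.25 and 1.997 to 0.124, 0.202 and 0.281 (−3.46 ± 0.34). On MSB Δ*atfB* mycelia had 7 of the 65 genes above the control and none below, against 2.14% and 0.913% of all genes, with a median of 0.07 beside 0.00. These were *rodA*, *hsp70*, AN3983, AN2238, *fdh*, AN1917 and AN7217. For *hsp70* the libraries were 530, 564 and 548 RPKM against 115, 185 and 72.03 (2.11 ± 0.37). At an unadjusted p below 0.05 there were 18.

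The 73 genes varied among the conidial groups by a median of 5.09-fold between the highest and the lowest group mean. On the scale of deposited RPKM the steadiest was the predicted regulator gene AN0742, whose group means spanned 1.90-fold, from 59.2 RPKM in the MSB-treated double mutant to 112.5 in the untreated control. This depended on the scale. The test, on RLE factors, called AN0742 lower than the control on MSB in Δ*atfA* and in the double mutant. With RLE-scaled RPKM it was not in the list. The widest spans were 31.05-fold for *mutA*, from 61.8 RPKM in MSB-treated Δ*atfA* to 1918 in the untreated control, and 30.2-fold for AN8737, from 55.7 in the MSB-treated control to 1678 in untreated Δ*atfA*.

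Of the 6 wall and pigment genes, 5 were upregulated on MSB in the control and 6 in Δ*atfA* and in labelled Δ*atfB*, 5 in the untreated double mutant over labelled Δ*atfB*, and none in Δ*atfA* or the double mutant over their partner strain on MSB. Of the 7 carbohydrate-active enzyme genes, 1 was higher and 2 lower on MSB in the control, 1 and 5 in Δ*atfA*, 1 and 1 in labelled Δ*atfB* and none and 2 in the double mutant, and 4 were higher and none lower in the untreated double mutant over labelled Δ*atfB*. Both predicted regulator genes were called lower in Δ*atfA* than in the control on MSB. Relative to labelled Δ*atfB*, AN11185 was called lower in the double mutant on both media, and AN0742 had log2 fold changes of −0.81 untreated and −0.62 on MSB, short of the threshold of 1. Of all genes, 4.6% were called higher and 10% lower on MSB in the control, and 6.38% and 8.68% in Δ*atfA*. In labelled Δ*atfB* these shares were 2.1% and 2.17%, and in the double mutant 0.611% and 0.631%. The double mutant over labelled Δ*atfB* had 13% and 16.9% untreated and 11.2% and 12.8% on MSB. Δ*atfA* over the control on MSB had 13.5% and 14.4%. The wall, enzyme and regulator lists were drawn from genes already chosen, so they say nothing of other wall or enzyme genes.

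A list of 27 genes of asexual development and spores held 3 of the 73 genes (*rodA*, *dewA* and *yA*). Of its 24 other genes, 3 were higher and 10 lower in Δ*atfA* than in the control on MSB (13.5% and 14.4% of all genes). Relative to labelled Δ*atfB*, 2 were higher and 10 lower in the untreated double mutant (13% and 16.9% of all genes). The same pair of strains had 3 and 9 on MSB (11.2% and 12.8% of all genes). On MSB, 4 of the 24 were upregulated and none downregulated in the control, against 4.6% and 10% of all genes. Labelled Δ*atfB* had 2 and none (2.1% and 2.17% of all genes). The double mutant had none in either direction (0.611% and 0.631% of all genes). Of the neighbouring pair AN6657 and AN6658, on MSB AN6658 had 903, 833 and 218 RPKM in the control against 284, 441 and 300 untreated, while AN6657 had 47.6, 51.3 and 39.5 against 131, 105.98 and 97.3 and was downregulated.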

How the data were processed

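Total RNA was sequenced as 75-base single reads from TruSeq libraries. Per the labels and the study's methods, the authors aligned reads with HISAT2 2.1.0, and the counting tool, annotation version and strand setting are not given in the sources used here. The authors deposited raw read counts per gene and, beside them, RPKM computed with edgeR from library totals. Recomputing RPKM from the deposited counts gave a largest relative difference of 3.1e-14. DESeq2 1.24.0 is also named in the submitters' processing notes.

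Members were found on deposited RPKM, and the members and all gene lists were chosen with earlier results of these data known. Deposited counts were tested with edgeR 4.0.16 in R 4.3.3 (quasi-likelihood test, RLE factors, genes at 0.5 RPKM or more in at least 3 libraries, Benjamini-Hochberg adjustment over all genes tested). Conidia (24 libraries, with a batch term), mycelia (24 libraries) and both together were fitted separately, so that groups of a fit shared one estimate of the spread. Genes were called at an adjusted p under 0.05 when the fold change also exceeded 1 on the log2 scale. Every adjusted p in the text comes from this edgeR test, and RPKM values are not log-transformed. The ± after a log2 fold change is an approximate standard error, the absolute log2 fold change over the square root of the F statistic. Tables were read with Python 3.11.15 and pandas 2.3.3. The test was checked on simulated counts in which rises and falls were balanced and batches did not differ. That simulation did not include the loss of a large share of the counts seen in conidia without *atfA*, so it does not cover that case.

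Alternatives were TMM factors, library totals, no filter, DESeq2 1.42.0, batch 1 alone, a replicate block and leaving out each library. Genes were named by rule: the highest 15 in untreated control conidia, the 3 largest rises and falls of each comparison free of the choice, genes with a symbol, genes next to a limit and genes of a functional group. AN1427, AN5449, AN6657, AN6658 and further genes of printed lists were named after their values had been seen. Depth ran from 8426329 to 24958904 counts per library in conidia and from 12974631 to 36314359 in mycelia, where values below 1 RPKM rest on few reads. The genotype labels of the double mutant name *atfB* in both places, and the group was taken from the sample titles.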

Additional observations from a re-analysis of the deposited data

Results flagged for a closer look

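AN4807 moved in opposite directions on MSB in mycelia of the control (log2 fold change −1.03) and of Δ*atfA* (1.08), with every library of each strain on its own side. The difference itself was not tested. Both calls were weak. The control value was −0.98 with TMM factors and between −0.98 and −0.87 without untreated library 2 or MSB-treated library 2 or 3, and the Δ*atfA* value was between 0.85 and 0.95 without untreated library 2 or 3 or MSB-treated library 1.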

How the results depend on the processing

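No named gene that was called changed direction under any alternative that was run, but with library totals the balance of higher and lower genes turned from 4 and 21 to 13 and 3 (untreated Δ*atfA* against control) and from 9 and 35 to 23 and 14 (untreated double mutant against control). With library totals the number of genes called fell from 11 to 6 (untreated labelled Δ*atfB* against control), from 2 to 1 (the same on MSB) and from 25 to 16 (the contrast that chose the genes). DESeq2 gave 4 in place of 2 for labelled Δ*atfB* against control on MSB, and 10 in place of 4 for MSB in the double mutant. Batch 1 alone gave 10, 20, 21 and 15 calls for labelled Δ*atfB* against control on MSB, the same untreated, MSB in the double mutant and the interaction. RLE-scaled RPKM left 36 in place of 58 genes at 0.5 or more of the control level in the untreated double mutant. The causes were not tested.

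On leaving out 1 library at a time, calls ranged from 2 to 6 (labelled Δ*atfB* against control, MSB), 5 to 15 (untreated), 0 to 25 (MSB in labelled Δ*atfB*), 0 to 8 (MSB in the double mutant) and 0 to 3 (interaction), and the list itself from 67 to 78 genes. Of 148 tests of named genes, the call held in 148 with DESeq2 or without a filter, 147 with TMM and 141 with library totals, in 84 of 87 with batch 1 alone, and it was lost in 132 of 888 fits without 1 library.

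Same-numbered conidial libraries were correlated in part: 17, 14 and 20 of 28 pairs of groups lay above 0.1 for replicates 1, 2 and 3. Their median correlations were 0.12, 0.12 and 0.19. Library 3 was batch 2 throughout, and the deviations compared were not adjusted for batch. A pairing in conidia beyond batch therefore cannot be told from these values. In mycelia 7, 4 and 12 of 28 pairs lay above 0.1, with medians of −0.03, −0.01 and 0.08. With a replicate block, 27 of 27 counts stayed within 1.5 times, and 2 calls were lost, *yA* on MSB in labelled Δ*atfB* (1.23) and *agdC* on MSB in the double mutant (−2.38). Promoter windows and their alternative were not run.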
